A study of Equus caballus with 2 samples.

Results

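CpG-dense stretches of DNA that were highly methylated in skin were examined in 1 equine sarcoid and in tumour-distant skin of the same animal, horse 1. A stretch, called a tile here, is 1 kb long, begins at a fixed multiple of that length, lists over 20 CpGs in either library, and holds at least 3 CpGs with 10 or more reads in both. Tiles in a 10 kb bin with 3 or more such dense tiles were left out, and the dense tiles kept are called isolated. Bins have fixed ends, so a kept tile can still adjoin dense tiles of the next bin. Of 9110 isolated dense tiles, 1085 (11.9%) had a methylation level of at least 80% in the skin, and these are the tiles described. The level of a tile is its methylated reads over all reads at its tested CpGs. Over the whole genome 103512 tiles of any density could be tested.

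Equine sarcoids are locally invasive skin tumours of fibroblast origin, in which DNA of bovine papillomavirus is commonly found. Reduced representation bisulfite sequencing (RRBS) was applied to the DNA of 1 tumour and of 1 skin sample taken away from it, which served as the control tissue. Each tissue gave 1 library, so all values describe these 2 libraries and nothing measures the spread between animals or between samples of a tissue. Both samples are whole tissue, and the share of each cell type in them was not measured.

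In mammalian DNA most CpGs are methylated, and methylated cytosines are lost by deamination over evolutionary time, so that dense groups of CpGs are uncommon. Most dense groups are CpG islands at gene starts, which carry little methylation in most tissues. A dense group that is methylated in a somatic tissue can be a silenced germline promoter, a CpG-rich exon or a young repeat element. No genes, repeats or sequences are given for the tiles, since no genome of the build of the files was used here. Tiles are therefore described by position, as the deposited files number the bases.

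The skin library listed 1203704 CpGs with 48650606 reads over cytosines, and the sarcoid library 1147734 CpGs with 35970547. A listed CpG had a median coverage of 30 in the skin library and 24 in the sarcoid library. In both libraries 877053 CpGs had at least 10 reads, and at these the medians were 41 and 31. On 10 chromosomes (5, 6, 7, 12, 18, 21, 22, 25, 28 and 29), taken as a group, the sarcoid library was deeper relative to the skin than on the other 21. They are called the deeper chromosomes, although the tiles described held fewer sarcoid than skin reads there too, at the median. Values that bear on this are given below.

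The 1085 tiles listed a median of 26 CpGs (21 to 83), of which a median of 19 (3 to 68) were tested, 21524 CpGs in all. A tile held a median of 930 reads in skin (47 to 37292) and 562 in sarcoid (33 to 19473), summed over its CpGs. A read that covers several CpGs is counted at each of them, and copies of a molecule made by PCR cannot be recognised without molecular identifiers. Wilson 95% intervals and p-values of tiles therefore cover counting error only and are too narrow or too small. The tested CpGs of a tile were a median of 10.5 bp apart, against 7 bp in the 6139 isolated dense tiles whose skin level was under 20%.

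The tiles stayed methylated in the sarcoid for the most part, at a slightly lower level. The skin level, which chose the tiles, had a median of 86.1% and ran from 80% to 97.7%, with 255 tiles at 90% or more. The sarcoid level, which the choice did not use, had a median of 83.4% and ran from 34.0% to 97.9%. In the sarcoid 708 tiles (65.3%) were at 80% or more, 298 (27.5%) at 70% to 80%, 69 (6.36%) at 50% to 70% and 10 (0.922%) below 50%. Levels of 90% or more were found in 169 tiles in the sarcoid. None of the tiles reached the low level typical of the unmethylated dense class in the sarcoid, the lowest being at 34.0%.

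**Figure D1:**
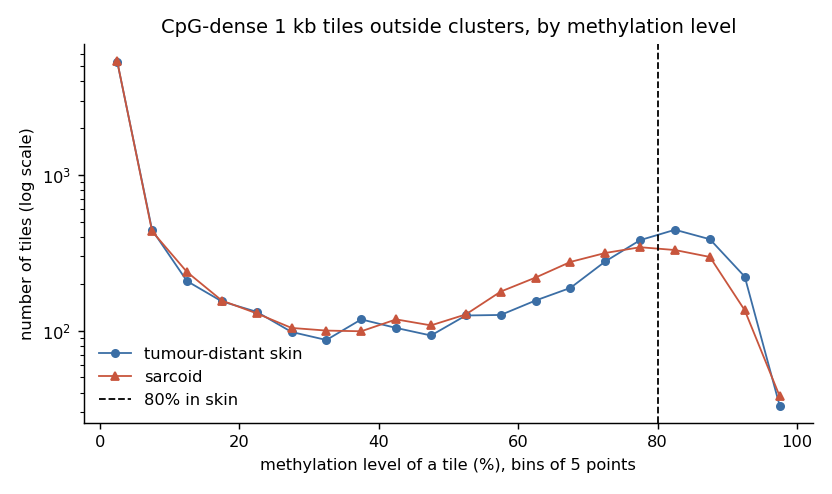
Number of tiles (log axis) by methylation level in bins of 5 percentage points, for all 9110 isolated dense tiles in skin (circles) and in sarcoid (triangles). The dashed line marks 80%, to the right of which lie the 1085 tiles described in skin. The bin from 80% to 85% held 444 tiles in skin and 329 in sarcoid, and the bin from 65% to 70% held 188 and 276.

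The difference, sarcoid minus skin, had a median of -3.26 percentage points over the tiles, with a mean of -4.37 and an SD across tiles of 6.85. It was below 0 in 834 tiles (76.9%), and 666 tiles (61.4%) lay within 5 points of 0. Falls of 10 points or more were seen in 157 tiles (14.5%) and rises of that size in 6. Over all 103512 tiles a fall of that size was seen in 17.6% and a rise in 10.3%. The median difference over all tiles was -0.41 points, with 56.3% below 0.

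A high skin level leaves more room for a fall than for a rise, so the choice itself fixes part of this direction. The same dense tiles chosen by a sarcoid level of at least 80% numbered 799, of which 708 were also chosen by the skin, 88.6% of these 799 and 65.3% of the 1085. Their median difference was -0.752 points and 457 of them (57.2%) were lower in sarcoid. With each CpG of a tile given the same weight, the median difference was -1.91 points for the tiles chosen by skin and 0.151 for those chosen by sarcoid. Reads were spread over CpGs differently in the libraries, with 1.02 sarcoid reads per skin read at CpGs of these tiles whose mean level over both libraries was under 50%, 0.722 at 50% to 80% and 0.612 at 80% or more. CpGs of low level therefore weighed more in the sarcoid level of a tile than in its skin level. The median was above 0 only where the sarcoid chose the tiles and CpGs had equal weight.

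By reads, tiles that resemble these in 1 respect gave other medians. The 1003 isolated dense tiles at 60% to 80% in skin had a median difference of -5.11 points. In the 23180 tiles of lower CpG density at 80% or more in skin it was -2.34 points, and 70.7% of them were at 80% or more in sarcoid. The dense tiles under 20% in skin had a median of -0.04 points. Each of these classes was set by the skin level, so none of these contrasts was tested.

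Methylated and unmethylated reads of each tile were compared between the libraries with Fisher's exact test (two-sided), and p-values were adjusted by Benjamini-Hochberg over all 103512 tiles. A call required a q under 0.01 and 25 points or more between the levels. Lower in the sarcoid by this rule were 21 of the 1085 tiles (1.94%) and higher 0, against 4.1% and 2.28% of all tiles. Nothing is read from these counts, because the skin level is part of the contrast and a tile at 80% or more has no 25 points left to gain. At q below 0.01 with no limit on the difference 332 tiles (30.6%) were lower and 26 (2.40%) higher, against 12.5% and 6.65% of all tiles. At q below 0.01 with a limit of 10 points in place of 25, 150 (13.8%) were lower and 5 higher, against 10.8% and 5.77% of all tiles. The Mantel-Haenszel test, which compares the libraries within each CpG before combining the CpGs, called 14 tiles (1.29%) lower and 0 higher, against 3.87% and 2.33% of all tiles. It kept 13 of the 21 calls, and 14 of the 21 differed by 25 points or more in the mean of CpG levels.

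**Figure D2:**
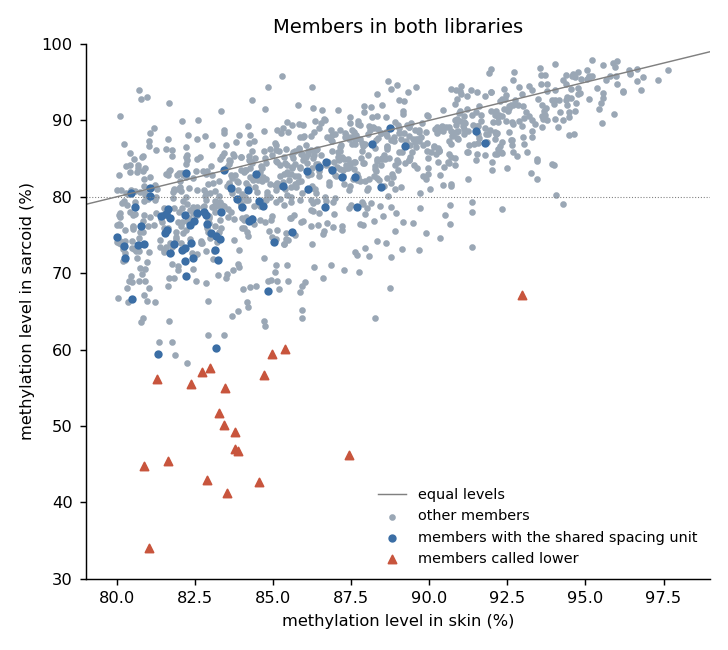
Level of each of the 1085 chosen tiles (members) in skin (horizontal axis, percent) against its level in sarcoid (vertical axis, percent). Red triangles are the 21 tiles called lower, from 67.2% down to 34.0% in sarcoid. Blue points are tiles with the recurring spacing of CpGs described further on, most of them below the line of equal levels, and grey points are the others.

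The 21 called tiles lay on 11 chromosomes. Their skin levels ran from 80.9% to 93.0% with a median of 83.5%, and their sarcoid levels from 34.0% to 67.2% with a median of 50.1%. The difference ran from -47.0 to -25.1 points, with a median of -33.3. They held 350 tested CpGs, of which 309 were lower in sarcoid and 191 had a sarcoid level between 30% and 70%. In 8 of the tiles every tested CpG was lower. The 18 neighbouring tiles that could be tested had a median of 82.6% in skin and 73.4% in sarcoid, with a median difference of -5.98 points. Only the called tiles were chosen by a fall of 25 points or more, so nothing is read from the smaller difference next door.

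The largest fall was in the tile at chromosome 8, bases 24083001 to 24084000, with 31 tested CpGs. Its level was 81.0% of 1307 reads in skin (Wilson 95% interval 78.8% to 83.1%) and 34.0% of 1017 reads in sarcoid (31.2% to 37.0%), a difference of -47.0 points (Fisher's exact test, Benjamini-Hochberg q = 3.48e-116). It was lower at 27 of its CpGs and higher at 3, and 14 CpGs were called lower on their own. The fall was uneven along the tile, and a gap of 168 bp without a tested CpG separated its parts. The 22 CpGs before that gap went from 74.2% of 867 reads in skin to 23.3% of 843 in sarcoid and held all 14 of the called CpGs. The 9 CpGs behind it were at 94.5% of 440 reads and 86.2% of 174. That split was made after the values were seen. The neighbouring tile on the side of the loss went from 58.1% to 42.0%, and the one on the other side from 93.1% to 91.5%.

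In the tile at chromosome 3, bases 32057001 to 32058000, the loss was even. Its 8 tested CpGs lay within 70 bp, about the length of 1 read of 75 bp, so the same molecules can have given most of their values. It was at 84.6% in skin and 42.6% in sarcoid (q = 1.18e-18). All 8 CpGs were between 36.4% and 45.5% in sarcoid, and the SD across CpGs was 6.64 points in skin and 3.38 in sarcoid. The tile before it went from 57.1% to 29.5%, and the tile after it from 78.3% to 73.3%.

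At chromosome 10, bases 9214001 to 9215000, the level went from 83.5% to 41.3% (q = 1.20e-53), with 16 of 17 CpGs lower. The neighbour before it was at 93.6% in skin and 95.9% in sarcoid, so this loss stopped within 1 tile on that side. At chromosome 13, bases 4927001 to 4928000, 9 CpGs went from 87.4% to 46.2% (q = 1.87e-28), and the neighbour before it from 89.7% to 65.5%. At chromosome 28, bases 39095001 to 39096000, 14 CpGs went from 82.9% to 42.9% (q = 1.51e-29). Its neighbour before it was at 81.3% and 71.0%.

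The sixth fall by size depended on how its CpGs were weighted. At chromosome 28, bases 45133001 to 45134000, reads gave 83.9% in skin and 46.8% in sarcoid over 17 CpGs. The mean of CpG levels was 81.8% and 68.5%, and the Mantel-Haenszel difference of -19.0 points was under the limit for a call.

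**Figure D3:**
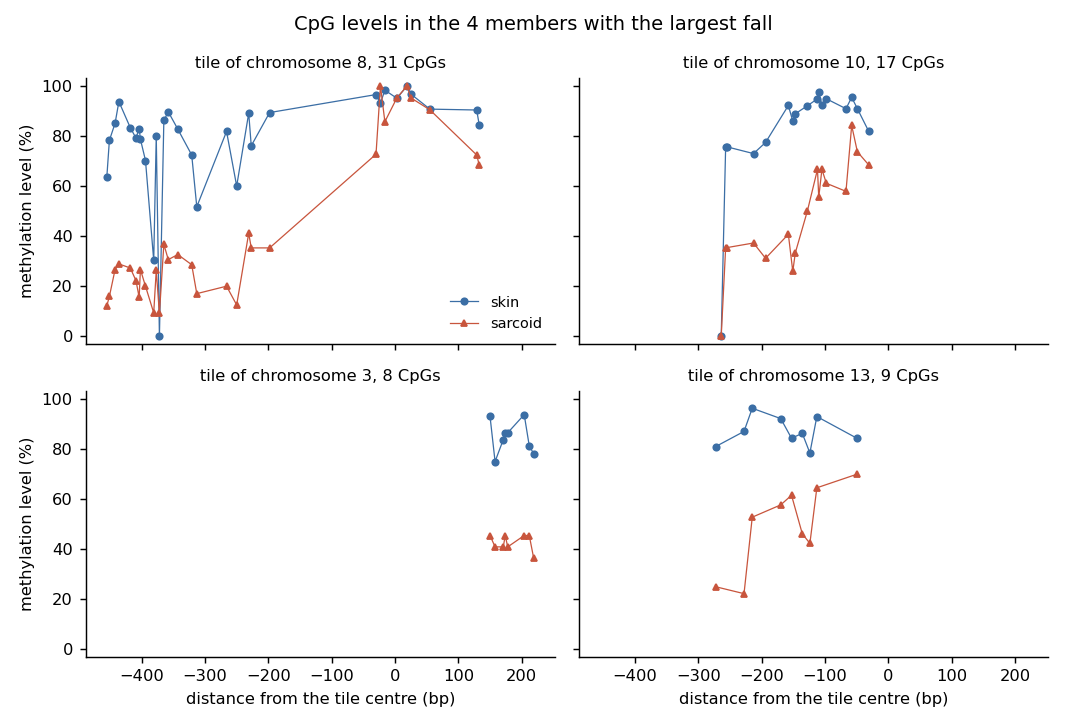
Level of each tested CpG in skin (circles) and in sarcoid (triangles), in percent, along the 4 chosen tiles with the largest falls, by distance in bp from the centre of the tile. In the chromosome 8 tile the CpGs on the left were far lower in sarcoid and those on the right stayed high. In the chromosome 3 tile all 8 CpGs lay between 36.4% and 45.5% in sarcoid.

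Rises were small, and the 3 largest were all below the limit of 25 points. At chromosome 10, bases 83694001 to 83695000, 3 CpGs went from 80.7% to 93.9% (q = 0.244, Fisher's exact test with Benjamini-Hochberg adjustment). With CpGs of at least 5 reads its rise was 4.33 points. At chromosome 22, bases 37042001 to 37043000, the level went from 81.0% to 93.1%, and at chromosome 10, bases 15438001 to 15439000, from 80.8% to 92.8%. The last of these had a q of 9.33e-06 by the same test, and differed by 18.9 points in the mean of CpG levels.

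The tiles with the most tested CpGs, and the deepest tiles high in both tissues, are described next. Many reads make counting error small, but copies made by PCR are counted too. The tile with the most tested CpGs, at chromosome 7, bases 44416001 to 44417000, held 68 and went from 92.6% (Wilson 95% interval 91.8% to 93.4%) to 86.7% (85.4% to 88.0%). The tile at chromosome 13, bases 2608001 to 2609000, held 57 and went from 89.2% to 76.6%, a fall that passed the test (q = 4.52e-28, Fisher's exact test with Benjamini-Hochberg adjustment) but not the limit of 25 points. The other two stayed level: the tile at chromosome 10, bases 25249001 to 25250000, was at 85.4% and 86.2% over 55 CpGs, and that at chromosome 5, bases 45149001 to 45150000, at 80.7% and 80.6% over 51.

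The deepest pair of tiles adjoined each other on chromosome 6. Bases 59579001 to 59580000 were at 92.7% of 37292 reads in skin and 92.0% of 19473 in sarcoid. Bases 59580001 to 59581000 were at 89.2% of 26267 reads and 90.9% of 15080. By the mean of CpG levels the first went from 88.7% to 83.3% and the second from 85.4% to 91.7%, while the Mantel-Haenszel differences were 0.0245 and 0.725 points. Next in depth among tiles high in both tissues was the tile at chromosome 9, bases 29298001 to 29299000, at 86.4% of 22150 reads in skin and 80.5% of 11132 in sarcoid, with a Mantel-Haenszel difference of -3.42 points. In all, 14 of the 1085 tiles held over 5000 skin reads. Without them the median difference was -3.27 points, and all 21 calls were in the other 1071.

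Within a tile, CpGs differed more than the sampling of reads alone would give. The median SD of CpG levels within a tile was 14.5 points in skin and 18.4 in sarcoid. Reads drawn at the same depth from 1 level shared by all CpGs of a tile would give medians of 5.36 and 7.43. The most even tile, at chromosome 8, bases 66753001 to 66754000, was at 97.3% in skin and 95.3% in sarcoid. Nearly as even were those at chromosome 1, bases 92561001 to 92562000, at 96.4% and 96.1%, and at chromosome 7, bases 3217001 to 3218000, at 96.4% and 96.7%. The least even tile, at chromosome 7, bases 42757001 to 42758000, was at 82.6% and 84.9%, with an SD across CpGs of 36.4 points in skin and 38.7 in sarcoid, so the uneven pattern was present in both tissues. With at least 5 reads per CpG its difference was -1.81 points. The tile at chromosome 23, bases 21445001 to 21446000, was likewise uneven and was at 85.2% and 86.0%. The third, at chromosome 21, bases 2492001 to 2493000, turned its direction with the method. By reads it went from 83.7% to 64.3%, by the mean of CpG levels from 69.0% to 73.7%, and the Mantel-Haenszel difference was 2.86 points.

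Single CpGs of low level were rare in these tiles and more numerous in the sarcoid. Over the 21524 CpGs the median level was 90.9% in skin and 91.1% in sarcoid, the lower quartile 82.2% and 76.2%, and the upper quartile 95.5% and 96.6%. The sarcoid was thus lower at the lower quartile and slightly higher at the median and the upper quartile. Its coverage was lower, and the part of coverage in this wider spread was not tested. In skin 17018 of the 21524 CpGs (79.1%) were at 80% or more, and in sarcoid 15492 (72.0%). CpGs below 50% numbered 1037 (4.82%) in skin and 1904 (8.85%) in sarcoid. CpGs below 20% numbered 221 (1.03%) in skin, spread over 189 tiles, and 343 (1.59%) in sarcoid. Below 20% in both were 158, which is 71.5% of the 221 and 46.1% of the 343. CpGs read as methylated in every read numbered 1867 (8.67%) in skin and 3903 (18.1%) in sarcoid, where coverage was lower. By Fisher's exact test per CpG, adjusted over all 877053 CpGs, 462 CpGs (2.15%) in 248 tiles were called lower and 19 (0.0883%) in 17 tiles higher, against 1.89% and 0.954% of all CpGs. Of the 462, 93 lay in the 21 called tiles.

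A CpG can be read from both strands, which normally carry the same methylation. In skin the strands were 30 points or more apart at 9.42% of 10264 CpGs of these tiles that had both strands covered, and in sarcoid at 14.6% of 8191. Over all CpGs this share was 12.3% and 16.4%, and in the dense tiles under 20% in skin it was 0.275% and 0.428%. Strands of CpGs near 0% have little room to differ, so the low share of that class is set in part by its level. Coverage was lower in the sarcoid, and its part in the larger shares there was not tested. With only CpGs of like strands (5 or more reads on each, under 30 points apart), the tiles were chosen anew. They then numbered 1400, and their median difference was -1.42 points.

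The surroundings of the tiles were methylated too. The 861 neighbouring tiles of 1 kb that could be tested had a median of 79.2% in skin and 75.8% in sarcoid. In skin 723 of them (84.0%) were at 60% or more and 24 (2.79%) below 20%. Around the dense tiles under 20% in skin, the neighbours had a median of 1.04%, and 82.5% were below 20%. No tested neighbour was found for 412 tiles, and 69 lay beside another tile of the same kind. Most, 817, were the only dense tile of their 10 kb bin. The other 268 shared it with 1 further dense tile, which was at 80% or more in skin in 122 cases, at 20% to 80% in 107 and below 20% in 39. In those 39 the low tile had a median of 0.554% in skin and 0.282% in sarcoid, while the high tile in the same bin had medians of 84.97% and 78.8%.

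Tiles whose neighbours on both sides were lowest in skin show what methylated tiles in less methylated surroundings looked like. At chromosome 25, bases 37850001 to 37851000, a tile of 81.0% in skin and 72.8% in sarcoid lay between neighbours at 8.52% and 12.6% in skin, which were at 7.34% and 9.59% in sarcoid. By the mean of CpG levels its difference was -2.96 points. At chromosome 13, bases 35099001 to 35100000, the tile went from 84.97% to 77.4%. Its neighbour before it stayed unmethylated at 0.249% and 0.593%, and its neighbour after it went from 57.1% to 19.7%. The Mantel-Haenszel difference of the tile was -4.44 points. At chromosome 13, bases 2921001 to 2922000, the tile was at 84.6% and 78.8%, beside neighbours at 14.99% and 68.8% in skin. Its direction turned to 0.122 points by the Mantel-Haenszel difference.

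Many of the tiles lay near chromosome ends. The shares below are a description, with no test. Within 5 Mb of the first or last listed base of a chromosome were 468 of them (43.1%), against 18.5% of the dense tiles under 20% in skin and 37.4% of those at 20% to 80%. Within 1 Mb were 137 (12.6%), against 4.94% and 9.65%. Tiles were found on all 31 chromosomes listed. Their share of the isolated dense tiles ran from 5.88% on chromosome 14 (19 of 323) to 23.0% on chromosome 26 (23 of 100). It was 19.7% on chromosome 7 (136 of 691) and 17.96% on chromosome 13 (88 of 490). The largest group in 1 Mb was at the start of chromosome 7, where 22 of 65 isolated dense tiles were high in skin. Those 22 had a median of 86.3% in skin and 80.2% in sarcoid, with a median difference of -7.42 points. Of the 22, 2 were called lower, against 4.1% of all tiles, and nothing is read from so small a count. A further 20 of 51 lay at bases 3000001 to 4000000 of that chromosome. Windows of 1 Mb with at least 10 of the tiles numbered 11 and held 155 of the 1085.

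**Figure D4:**
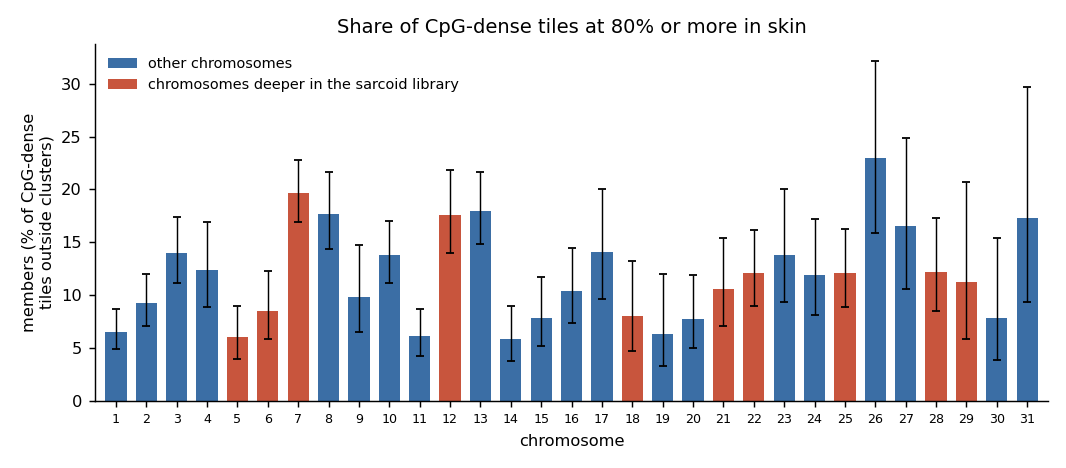
Share of the isolated dense tiles of each chromosome that were at 80% or more in skin (members, in percent). Bars show the share and error bars its Wilson 95% interval. Red bars are the 10 chromosomes that, as a group, were deeper in the sarcoid library relative to the skin library. The share runs from 5.88% on chromosome 14 to 23.0% on chromosome 26, where the interval is wide.

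The median difference was below 0 on 31 of 31 chromosomes. The choice by skin level favours a fall on each of them, so nothing is read from this count. On the 10 deeper chromosomes, 388 tiles had a median difference of -3.70 points, and 61.9% were at 80% or more in sarcoid. Of these tiles 9 (2.32%) were called lower, against 5.33% of all tiles there. On the other 21, 697 tiles had a median of -2.81 points, 67.1% were at 80% or more, and 12 (1.72%) were called lower, against 3.51% of all tiles there. The ratio of sarcoid to skin reads per tile had medians of 0.690 and 0.567 in these groups. Single chromosomes overlapped, with 0.631 on chromosome 5 and 0.636 on 6, against 0.648 on 4 and 0.650 on 9 among the other 21. Over all 1085 tiles the median ratio was 0.615, against 0.674 in the dense tiles under 20% in skin. The part of these ratios in the differences was not tested.

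A share of the tiles held a pattern of CpG positions that recurred across the genome. Strings of 5 successive distances between neighbouring CpGs were compared over all tiles, using positions and no methylation values, and read in both directions. The most frequent string was 5, 7, 14, 5 and 19 bp, found in 270 tiles. Strings that overlapped it closed into a repeating unit of 12 CpGs with a period of 225 bp, whose distances were 5, 7, 14, 5, 19, 11, 20, 17, 31, 8, 70 and 18 bp. The sequence behind it was not read here, and no element is named. The unit was sought after CpG positions had been looked at.

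A tile was taken to hold the unit where any string of 5 successive distances from it was found, in either direction. A tile so counted need not hold all 12 CpGs of the unit. By this rule the unit was found in 384 of the 103512 tiles (0.37%), on 31 chromosomes, forward in 190 and backward in 194. Of the 1085 tiles 71 (6.54%) held it, on 25 chromosomes. It was found in 0 of the 6139 isolated dense tiles under 20% in skin and in 142 of the 1003 at 60% to 80%. Over all 384, the skin level had a median of 77.3% and ran from 53.8% to 92.6%, and the sarcoid level had a median of 68.4% and ran from 35.9% to 89.5%. The 80% limit thus took in only the upper part of a group whose levels straddle it.

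Nearly all of the 71 tiles with the unit were lower in the sarcoid, a contrast with the rest that was not tested. Their median level was 83.0% in skin and 77.6% in sarcoid, with a range in sarcoid of 57.6% to 89.0%. The difference had a median of -5.37 points and was below 0 in 66 of them (93.0%), and 22 (30.99%) were at 80% or more in sarcoid. In the other 1014 tiles the median difference was -3.08 points, 75.7% were lower and 67.7% were at 80% or more. By the mean of CpG levels the medians were -4.15 and -1.68 points. Tiles with the unit were closer to the 80% limit, and among tiles at 80% to 85% in skin the medians were -6.01 points for 53 with the unit and -4.02 for 391 without. They were also deeper, with medians of 2218 and 895.5 skin reads, and had more sarcoid reads per skin read (0.742 and 0.597). The part of these differences in depth was not tested. Of the 71, 1 was called lower, against 4.1% of all tiles. It lay at chromosome 10, bases 47576001 to 47577000, at 83.0% of 3881 reads in skin and 57.6% of 3464 in sarcoid.

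Levels differed along the unit, with the same low and high positions in both tissues. Placing each tested CpG of the 71 tiles in the unit gave 630 CpGs, of which 483 were lower in sarcoid. CpG 4, counted from the first distance given above, was below its neighbours, with medians of 73.7% in skin and 60.6% in sarcoid. The CpGs on either side of it, 3 and 5, went from 83.9% to 75.7% and from 83.9% to 76.5%. CpG 1 went from 84.9% to 76.0% and CpG 2 from 85.7% to 78.4%. CpG 6 was low as well, with medians of 70.1% and 63.7%. CpG 4 was lower in sarcoid in 58 of 71 cases, and its median difference of -10.8 points was the largest of the 12 positions with both strands summed. Its pooled level was 76.5% in skin and 61.5% in sarcoid on the strand along the unit, and 73.6% and 62.1% on the other. On single strands other positions differed by more, CpG 6 along the unit (50.9% and 34.2%) and CpG 7 on the other strand (62.3% and 39.5%).

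CpG 10 was the highest in both tissues, with medians of 93.2% and 92.5% over 17 CpGs only. CpG 9 had a median of 10.1% in skin and 1.19% in sarcoid, over 20 CpGs only. There the strands disagreed in both tissues, with 36.2% along the unit and 79.4% on the other strand in skin, and 36.7% and 75.5% in sarcoid. CpG 12 was at 82.2% along the unit and 11.3% on the other strand in skin, and at 74.2% and 5.80% in sarcoid. Its medians over both strands were 52.5% in skin and 47.4% in sarcoid. At CpG 6 the strand along the unit was the lower one, at 50.9% against 82.8% in skin and 34.2% against 74.3% in sarcoid. At CpG 7 it was the higher one, at 81.8% against 62.3% in skin and 75.3% against 39.5% in sarcoid. Which tile a read of a recurring sequence came from was not tested.

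**Figure D5:**
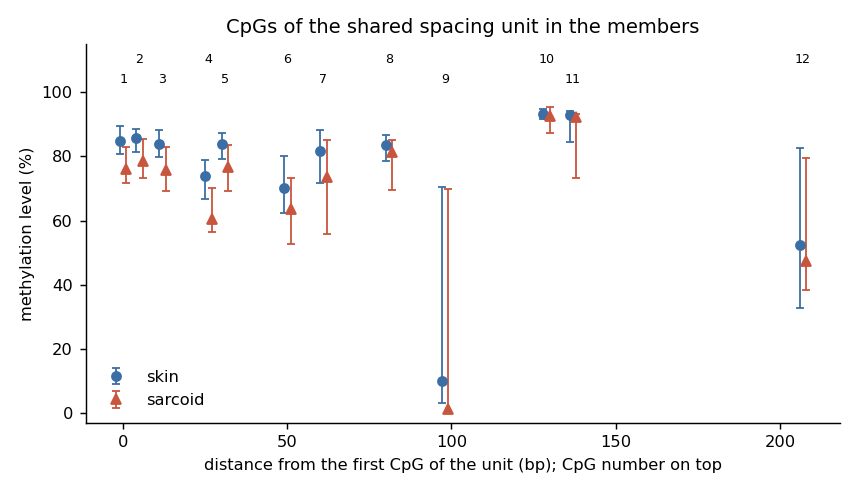
Median level (percent) of the CpGs at each of the 12 positions of the recurring unit in skin (circles) and in sarcoid (triangles), against distance in bp from its first CpG, over the chosen tiles that hold it. Error bars span the lower to the upper quartile over CpGs. The median is lower in sarcoid at all 12 positions and drops at CpG 4, CpG 6, CpG 9 and CpG 12 in both tissues. CpG 10 rests on 17 CpGs and CpG 11 on 7, with medians of 92.9% and 92.3% at CpG 11. Over all tiles with the unit, the CpG 11 median was higher in sarcoid (86.2% and 87.5%), with 19 of 35 CpGs lower.

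The limit of 80% cut through a continuous range. Just inside it were the tiles at chromosome 10, bases 6504001 to 6505000, with 80% in skin and 74.0% in sarcoid, at chromosome 14, bases 23618001 to 23619000, with 80% and 74.7%, and at chromosome 27, bases 38802001 to 38803000, with 80% and 80.9%. Just outside were those at chromosome 19, bases 4197001 to 4198000, with 79.95% and 75.6%, at chromosome 3, bases 116450001 to 116451000, with 79.95% and 83.1%, and at chromosome 3, bases 116508001 to 116509000, with 79.94% and 79.1%. By the mean of CpG levels the first tile inside had a difference of -2.48 points and the second outside 0.574.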

How the data were processed

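The deposited file of each library holds 1 line per cytosine of a CpG, with its read count and, per the file headers, the percent of those reads showing C, in other words the methylation level, to 1 decimal. Per the labels' protocols, libraries followed Illumina's RRBS guide and were read from 1 end over 75 bp. Per the submitters' processing notes, the tools were BSMAP, FastQC and methylKit (no versions given). The genome build is not given in the sources used here.

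Methylated reads were coverage times percent, rounded to whole reads, and both strands were added up. A CpG was tested where each library had 10 reads or more, singly and in tiles of 1 kb with at least 3 such CpGs, by a two-sided Fisher's exact test with Benjamini-Hochberg adjustment. Mantel-Haenszel tests, other limits and other weights were alternatives. There was 1 library per tissue, so the tests compare the libraries, not the conditions.

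The tiles, gene lists and rules were chosen with earlier results of these data known. Tiles named were those with the 6 largest falls, the 3 largest rises, the 4 highest numbers of tested CpGs, the 3 highest sarcoid read totals among tiles high in both, the 3 lowest and 3 highest SDs of skin CpG levels among tiles with at least 10 tested CpGs, the 3 nearest each side of the limit, and the 3 with lowest flanks. The tile with the recurring unit that was called was named after its value was seen. Genes were not assigned and the gene lists not used. The deposited table of the authors' own comparison was not used. The scripts, tested on simulated data, ran under Python 3.11.15 with SciPy 1.17.1, matplotlib 3.10.9, pandas 2.3.3, numba 0.67.0 and NumPy 2.4.6.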

Additional observations from a re-analysis of the deposited data

How the results depend on the processing

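Results were recomputed with 1 choice changed at a time. The number of tiles (1085) was 2001 with over 15 listed CpGs, 320 with over 30, 1744 from 70% in skin and 255 from 90%. It was 697 without the 10 deeper chromosomes, 998 by the mean of CpG levels and 1400 with like strands. The tiles were chosen anew in each case. The share at 80% or more in sarcoid was 69.7%, 44.4% and 96.1% with over 30 CpGs, from 70% and from 90%, 74.4% by the mean of CpG levels and 77.2% with like strands. In the same order the median sarcoid level was 84.1%, 78.5%, 90.1%, 84.7% and 88.1%. Chosen by the sarcoid level, neither is given, since the choice fixes them. The median difference was -2.83, -3.87 and -2.35 points with over 30 CpGs, from 70% and from 90%. It was -0.752 chosen by sarcoid, -1.66 by the mean of CpG levels, -1.42 with like strands and -2.81 without the deeper chromosomes.

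Tiles called lower numbered 38 and 7 with over 15 and over 30 CpGs, and 52 and 1 from 70% and from 90% (all tiles 4.1% throughout). Chosen by sarcoid, tiles called lower numbered 0 because a level that high in sarcoid leaves no room for such a call. They numbered 13 (1.27%, all tiles 4.10%) with tiles shifted by 500 bp, 10 (1.00%, 3.77%) by the mean of CpG levels, 34 (2.43%, 3.30%) with like strands, 12 (1.72%, 3.5%) without the deeper chromosomes and 14 (1.29%, 3.87%) by Mantel-Haenszel. With a limit of 10 points they numbered 150 (13.8%), and here the share was above that of all tiles (10.8%). Tiles called higher numbered 10 chosen by sarcoid (all tiles 2.28%) and 5 with a limit of 10 points (all tiles 5.77%). For the recurring unit, over all 384 tiles (-6.67 points), the median was -5.34 by the mean of CpG levels, -5.15 by Mantel-Haenszel and -5.88 with like strands.

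Of 31 named tiles 8 turned direction under an alternative. With at least 5 reads these were chromosome 7 at 3217001 (-0.00656) and 42757001 (-1.81), chromosome 27 at 38802001 (-0.163) and chromosome 3 at 116508001 (1.75). By the mean of CpG levels they were chromosome 5 at 45149001 (0.239), chromosome 21 at 2492001 (4.76) and chromosome 3 at 116508001 (1.94). By Mantel-Haenszel they were chromosome 6 at 59579001 (0.0245), chromosome 21 at 2492001 (2.86), chromosome 13 at 2921001 (0.122) and chromosome 3 at 116508001 (1.68). The cause was not tested. The limits of 5000 skin reads, the recurring unit and its difference were added after the data were seen. No paired analysis was possible because each tissue has 1 library and replicates are absent. The level of a tile with few reads is uncertain by at least its Wilson interval, which covers counting error only and is too narrow.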
